A study of Mus musculus with 6 samples.

Results

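The actin isoform genes are the 6 genes of the mouse that encode conventional actins, taken by name from a table of gene values for embryonic hearts: Acta1, Acta2, Actc1, Actb, Actg1 and Actg2. All 6 were found among the 45706 genes of the table, and all 6 reached the mean of 10 over the hearts that a gene needed to be tested, as did 15556 genes in all. The tested hearts were double knockouts of the C57BL6/J strain, with Rbpms and Rbpms2 both flox/flox, meaning that loxP sites flank part of each copy, and with an aMyHC Cre transgene (3 hearts). The controls were littermate hearts of the same strain with both genes flox/flox as well, and their genotype label names no Cre (3 hearts). The aMyHC (alpha-myosin heavy chain) promoter is active in cardiomyocytes, so other cells of the heart should keep both genes. The groups differ by the Cre transgene as well as by the deletion. The labels place the hearts at an embryonic stage without giving the day, and each sample is labelled as a heart of its own. RBPMS and RBPMS2 are RNA-binding proteins, and the comparison asked what their loss from cardiomyocytes does to the transcripts of the heart.

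Actin is the protein of the thin filament of muscle and of the cytoskeleton. Mammals carry 4 muscle isoforms and 2 cytoplasmic ones: ACTC1 is the alpha-actin of heart muscle, ACTA1 that of skeletal muscle, ACTA2 that of vascular smooth muscle and ACTG2 the gamma-actin of visceral smooth muscle, while ACTB and ACTG1 are present in nearly every cell. The heart of the embryo is known to make ACTA1 and ACTA2 beside ACTC1 in its cardiomyocytes. Most actin genes are known targets of the serum response factor SRF, which binds a DNA element called the CArG box and whose MRTF cofactors are held back by free actin monomers.

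The coding sequences are shown first, because the values below rest on telling reads of such similar genes apart. The first 45 coding bases of the longest annotated coding transcript of each gene are given 5′ to 3′, from GENCODE M21 (mm10), with capitals for the bases that have no match in the member with the closest coding sequence.
Acta1: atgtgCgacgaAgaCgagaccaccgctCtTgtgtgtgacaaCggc
Actc1: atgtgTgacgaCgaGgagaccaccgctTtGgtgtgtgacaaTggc
Acta2: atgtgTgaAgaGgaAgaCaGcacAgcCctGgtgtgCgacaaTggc
Actg2: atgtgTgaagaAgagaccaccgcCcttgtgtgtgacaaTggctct
Actb: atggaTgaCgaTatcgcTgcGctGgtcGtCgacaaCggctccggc
Actg1: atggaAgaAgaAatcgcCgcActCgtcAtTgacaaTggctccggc
Acta1 and Actc1 were set against each other, as were Actb and Actg1, and Acta2 and Actg2 were set against Acta1. Over the whole coding sequence Acta1 and Actc1 were identical at 86.2% of positions and Actb and Actg1 at 88.7%. The lowest identity, 81.5%, was that of Actg1 with Acta2 and with Actc1. The reads were 75 bases long at each end. Of the 75-base windows of these transcripts, none of Acta2, Actc1 or Actg2 occurred in an annotated transcript of another gene, while 6 of 1372 windows of Acta1 and 48 of 1846 windows of Actb did. Actg1 stood apart, with 1023 of 1878 windows (54.5%) found in another gene. Most of them were shared with the pseudogenes Gm12715, with 898 windows, and Gm8399, with 502. The 5 pseudogenes of this kind that the table lists had summed values of 39, 23 and 43 in knockout hearts 1 to 3 and 22, 23 and 28 in control hearts 1 to 3. No source used here says how reads with several matches were counted, so the level of Actg1 in particular is uncertain.

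The deposited values are read numbers scaled by the authors with 1 factor for each heart and rounded, with totals of 17861435 to 17898118 in the knockouts and 18023633 to 18439201 in the controls. The estimated depth before that division was 14759077 to 25837261 reads in the knockouts and 12960709 to 21331727 in the controls. Rbpms averaged 16.8% of its control mean in the knockouts and Rbpms2 55.1%. Xist and the Y-linked gene Eif2s3y showed 2 of 3 knockouts and 1 of 3 controls to be XY, so embryo sex was not balanced. The 12 cardiomyocyte markers examined were present in every heart, with summed values of 821175 to 889914 in the knockouts and 901324 to 954807 in the controls.

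Of the 6 isoforms, Acta1, Acta2 and Actc1 fell in the knockouts, Actg1 rose, and Actb and Actg2 did not pass the test. The test was limma's moderated test on log2(value + 1), with Benjamini-Hochberg adjusted p under 0.05 over the 15556 genes. That is 3 members called lower, where 8.56% of all genes tested were, and 1 called higher, where 8.61% were. In either direction 4 of 6 members were called, against 17.2% of the genes tested. In 4 of the 6 the values of the groups did not overlap, against 35.4% of the genes tested. The median log2 fold change was -0.18 over the members and 0.00 over all genes tested. The members were chosen with earlier results of these data known, so these counts are a description.

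**Figure D1:**
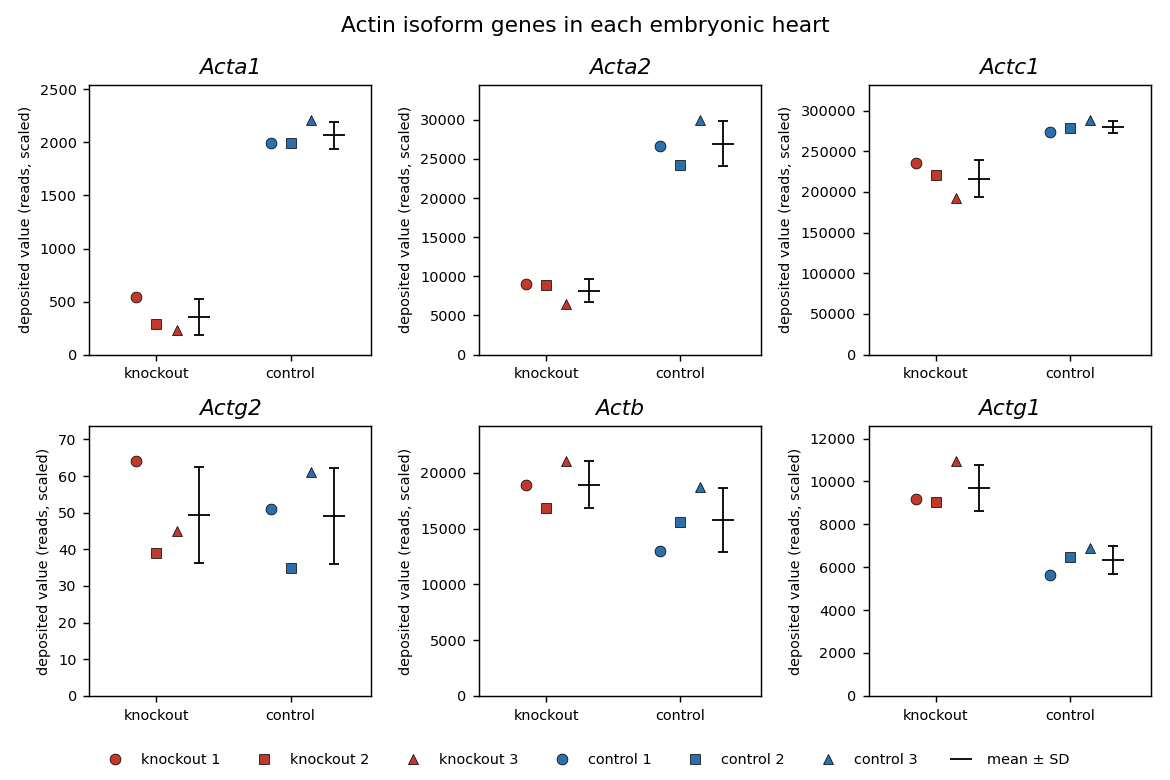
Deposited value (reads divided by a factor per heart and rounded) of each actin isoform gene in 3 knockout and 3 control hearts, on linear axes from 0, with the mean ± SD beside the points. The groups stand apart for Acta1, Acta2, Actc1 and Actg1, and overlap for Actg2 and Actb.

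Actc1 (ENSMUSG00000068614; mm10 chr2:114047282-114053548, minus strand) is the main actin of the heart's sarcomere. Its values were 236077, 220969 and 192214 in knockout hearts 1 to 3, against 273411, 278592 and 288236 in control hearts 1 to 3. Every knockout lay below every control, and knockout 3 was the lowest. Actc1 averaged 216420 ± 22283 in the knockouts and 280080 ± 7524 in the controls (SD, n = 3 each), 77.3% of the control mean. Its log2 fold change was -0.38 (SE 0.11, 95% interval -0.62 to -0.13, limma adjusted p = 0.0405). The direction was the same under every alternative tried, but the call was lost in 11 of 15, among them quantile normalization, with -0.11 (adjusted p = 0.461), equal totals (adjusted p = 0.0504), embryo sex as a covariate (adjusted p = 0.0771), and leaving out knockout 2 (adjusted p = 0.116), knockout 3 (0.118), control 1 (0.0753), control 2 (0.0995) or control 3 (0.105). A noncoding gene on the opposite strand at this locus, A530058N18Rik, was at 22, 12 and 6 in knockout hearts 1 to 3 and 24, 19 and 18 in control hearts 1 to 3. Per kilobase of exon Actc1 ranked 1 of all genes tested in both groups. In these whole hearts, fewer cells of a type and less RNA per cell cannot be told apart. Of the 12 cardiomyocyte markers, 1 fell, close to the 8.56% of all genes tested, and 0 rose. Their median log2 fold change was -0.15. In 4 of the 12 the knockouts lay below the controls without overlap, against 17.9% of all genes tested. In 0 they lay above, against 17.5%. The summed values of the 12 did not overlap either, the knockouts being lower. The part of these markers in the result for Actc1 was not tested.

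Acta1 (ENSMUSG00000031972; mm10 chr8:123891769-123894751, minus strand), the skeletal muscle alpha-actin gene, changed most of the 6. Its values were 544, 290 and 228 in knockout hearts 1 to 3, against 1994, 1991 and 2210 in control hearts 1 to 3. The controls lay close together, with a coefficient of variation of 6.08%, whereas the knockouts varied by 47.3%, knockout 1 being the highest of them. The mean in the knockouts was 17.1% of that in the controls. On the log2(value + 1) scale the change was -2.64 (SE 0.25), or a ratio of 0.110 to 0.235 over the 95% interval, and by the size of its change Acta1 ranked 16 among the 15556 genes tested. Without knockout 1 the change was -3.00, and without knockout 3 it was -2.37. Per kilobase of exon, Acta1 averaged 230.5 ± 109 in the knockouts and 1344 ± 81.8 in the controls (SD, n = 3 each), rank 4134 and rank 631 among the genes tested. Skeletal muscle markers were low in both groups: the 14 together summed to 270 to 304 in the knockouts and 312 to 343 in the controls, and Myod1 and Pax7, which define the skeletal lineage, were listed at 0 in all hearts. All 37 mitochondrial genes of the table, which every cell uses, are listed at 0 as well, so a listed 0 does not show that a gene was silent. The summed values of the 14 skeletal muscle markers did not overlap, the knockouts being lower. The median log2 fold change of the 7 that could be tested was 0.19. The part of these markers in the fall of Acta1 was not tested. Of those 7, 0 rose and 1 fell, against 8.61% and 8.56% of all genes tested. The 1 was Tnni2, the inhibitory troponin of fast skeletal fibres. It was at 115, 67 and 51 in knockout hearts 1 to 3 and 140, 152 and 127 in control hearts 1 to 3. The lower sums of the list rest on this gene.

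Acta2 (ENSMUSG00000035783; mm10 chr19:34241090-34255590, minus strand), the smooth muscle alpha-actin gene, was the second most abundant actin per kilobase in the controls. Its values were 9040, 8931 and 6450 in knockout hearts 1 to 3, against 26680, 24225 and 29957 in control hearts 1 to 3. The highest knockout was far below the lowest control, and knockout 3 was the lowest, as it was for Actc1 and Acta1. The mean in the knockouts was 30.2% of that in the controls. The change of -1.74 (SE 0.13, a ratio of 0.246 to 0.366 over the 95% interval) had the fourth smallest p of all genes tested. Per kilobase, Acta2 averaged 3707 ± 667 in the knockouts and 12274 ± 1310 in the controls (SD, n = 3 each), rank 187 and rank 31. Of 12 markers of smooth muscle and mural cells, 0 rose and 2 fell, against 8.61% and 8.56% of all genes tested, with a median log2 fold change of 0.14. In 3 others, none of them called, the knockouts lay above the controls without overlap: Cspg4, Kcnj8 and Abcc9. Of all genes tested, 17.5% lay above in this way. The 12 summed to 17716 to 19634 in the knockouts and 16590 to 18422 in the controls. The 2 that fell were Myh11, the smooth muscle myosin heavy chain, at 80, 40 and 31 in knockout hearts 1 to 3 and 153, 106 and 141 in control hearts 1 to 3, and Smtn, smoothelin. Pdgfrb, the receptor that marks pericytes, was at 2148 to 2529 in the knockouts and 1785 to 2197 in the controls. Rgs5, another marker of this list, was at 2426 to 2840 in the knockouts and 2600 to 2871 in the controls. Neither was called, and in both the groups overlapped. Neither these markers' part in the fall of Acta2 nor the cell type that lost the transcript was tested.

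Actg2 (ENSMUSG00000059430; mm10 chr6:83512905-83536265, minus strand), the visceral smooth muscle gamma-actin gene, was the rarest isoform. Its values were 64, 39 and 45 in knockout hearts 1 to 3, against 51, 35 and 61 in control hearts 1 to 3. The groups overlapped throughout. These values stand for about 32 to 92 reads per heart, for which counting alone gives an SD of 10.4% to 17.6%, against a coefficient of variation between hearts of 26.5% in the knockouts and 26.8% in the controls. The log2 fold change was 0.01 (SE 0.26), and its 95% interval ran from -0.56 to 0.59 (limma adjusted p = 0.978). A change anywhere in that range remains possible.

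Actg1 (ENSMUSG00000062825; mm10 chr11:120345690-120348542, minus strand), the cytoplasmic gamma-actin gene, was the isoform that rose. Its values were 9172, 9017 and 10935 in knockout hearts 1 to 3, against 5635, 6485 and 6875 in control hearts 1 to 3. Every knockout lay above every control, and knockout 3 was the highest. The ratio of the means was 1.53, and the log2 fold change was 0.62 (SE 0.10, a ratio of 1.32 to 1.78 over the 95% interval, limma adjusted p = 0.00266). It stayed between 0.53 and 0.68 and past the threshold under every alternative tried, with adjusted p of 0.00047 to 0.0113. Actb (ENSMUSG00000029580; mm10 chr5:142903115-142906754, minus strand), the cytoplasmic beta-actin gene, was at 18926, 16886 and 21026 in knockout hearts 1 to 3, against 12998, 15590 and 18714 in control hearts 1 to 3. Control 3 lay above knockout 2, so the groups overlapped. Its log2 fold change of 0.28 (SE 0.13, 95% interval -0.01 to 0.56) did not pass (limma adjusted p = 0.168). Both cytoplasmic actin genes are active in the heart's other cells as well as in cardiomyocytes. In the same hearts 6 of 10 endothelial and endocardial markers rose and 0 fell, 5 of 10 fibroblast markers rose and 0 fell, and 7 of 10 macrophage markers rose and 0 fell, against 8.61% of all genes tested that rose. The summed values of these lists did not overlap between the groups: endothelial markers summed to 26165 to 29098 in the knockouts and 22131 to 22702 in the controls, fibroblast markers to 122725 to 153199 in the knockouts and 94041 to 109574 in the controls, and macrophage markers to 2612 to 3564 in the knockouts and 1831 to 2012 in the controls. These lists too were chosen with earlier results of these data known, and their part in the result for Actg1 was not tested.

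**Figure D2:**
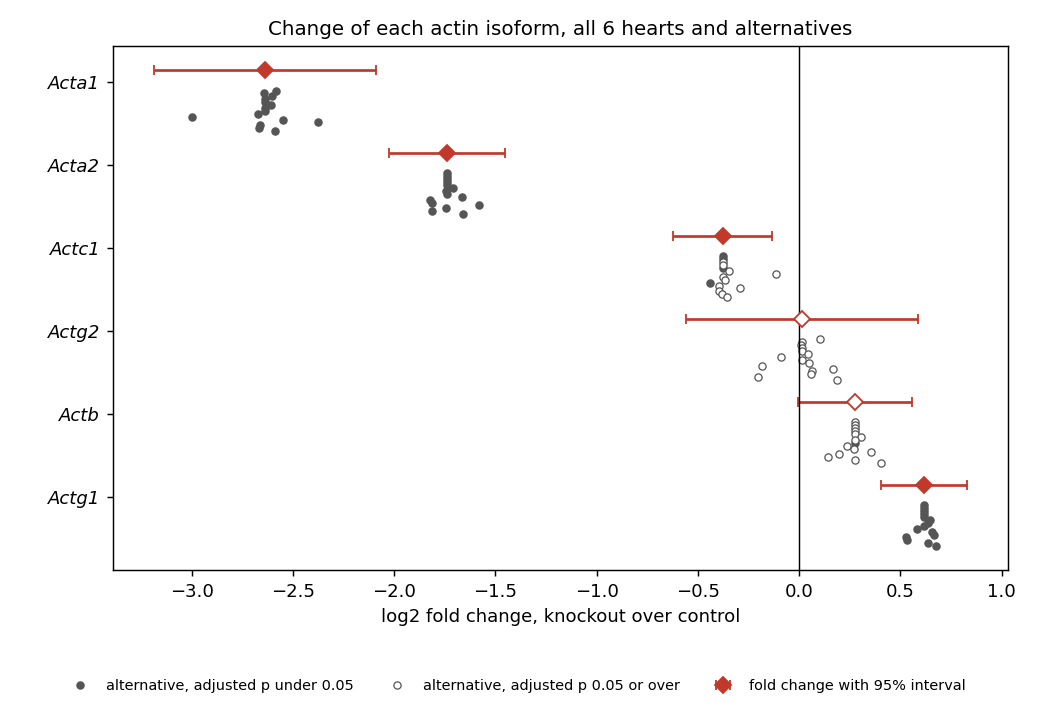
Log2 fold change of each isoform, knockout over control, on log2(value + 1): the diamonds with bars are the fit to all 6 hearts with its 95% interval, and the small points are the 15 alternatives. Filled symbols have an adjusted p under 0.05: Acta1, Acta2 and Actg1 keep theirs throughout, and Actc1 loses it in 11.

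The make-up of the actin pool was taken from the values per kilobase of exon, as the share of each isoform in the sum of the 6 within a heart, which does not depend on the authors' factor. The 9 quantities below were each tested with an exact two-sided permutation test over hearts, which cannot give a p below 0.1 with 3 against 3. Actc1 held nearly the whole pool in both groups, 90.0% ± 1.13 in the knockouts and 88.8% ± 0.827 in the controls (SD, n = 3 each), and the groups overlapped (exact permutation p = 0.3, adjusted 0.3). The smaller isoforms changed places around it. Acta2 made up 2.56%, 2.70% and 2.19% of the pool in knockout hearts 1 to 3, against 6.41%, 5.72% and 6.73% in control hearts 1 to 3. Actb made up 4.39%, 4.19% and 5.86% in the knockouts, against 2.56%, 3.02% and 3.44% in the controls, and Actg1 made up 2.14%, 2.25% and 3.07% in the knockouts, against 1.12%, 1.27% and 1.28% in the controls. Acta1 made up 0.220%, 0.125% and 0.111% in the knockouts, against 0.685%, 0.672% and 0.709% in the controls. In each of these 4 the groups did not overlap (exact permutation p = 0.1, adjusted 0.129). A share also rises when the rest of the pool falls, and the values of Actc1, which make up most of it, were lower in the knockouts. Actb's own values overlapped and were not called, with a ratio of means of 1.20. Actg2 held 0.0213% in the knockouts and 0.0161% in the controls, with overlapping hearts.

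The 2 cytoplasmic isoforms together made up 6.53%, 6.44% and 8.94% of the pool in knockout hearts 1 to 3, against 3.68%, 4.28% and 4.72% in control hearts 1 to 3 (exact permutation p = 0.1, adjusted 0.129). The order of the isoforms after Actc1 therefore differed: in each control it ran Acta2, Actb, Actg1, Acta1, Actg2. In each knockout Actb came before Acta2, and Actg1 and Acta2 were so close that their order differed between hearts, with 1.19, 1.20 and 0.714 Acta2 per Actg1 per kilobase of exon. That order rests on the length used: with the longest transcript's length the ratio was 0.945, 0.950 and 0.566 in knockout hearts 1 to 3, and with no length scaling 0.986, 0.990 and 0.590, so that Actg1 was then above Acta2 in all 3. The pool as a whole was smaller, at 160934, 150546 and 133874 per kilobase in the knockouts and 189433, 192792 and 202835 in the controls (exact permutation p = 0.1, adjusted 0.129), a difference that does rest on the authors' factor. Without any length scaling, the 6 genes took 1.29% to 1.53% of all values in the knockouts and 1.78% to 1.88% in the controls.

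**Figure D3:**
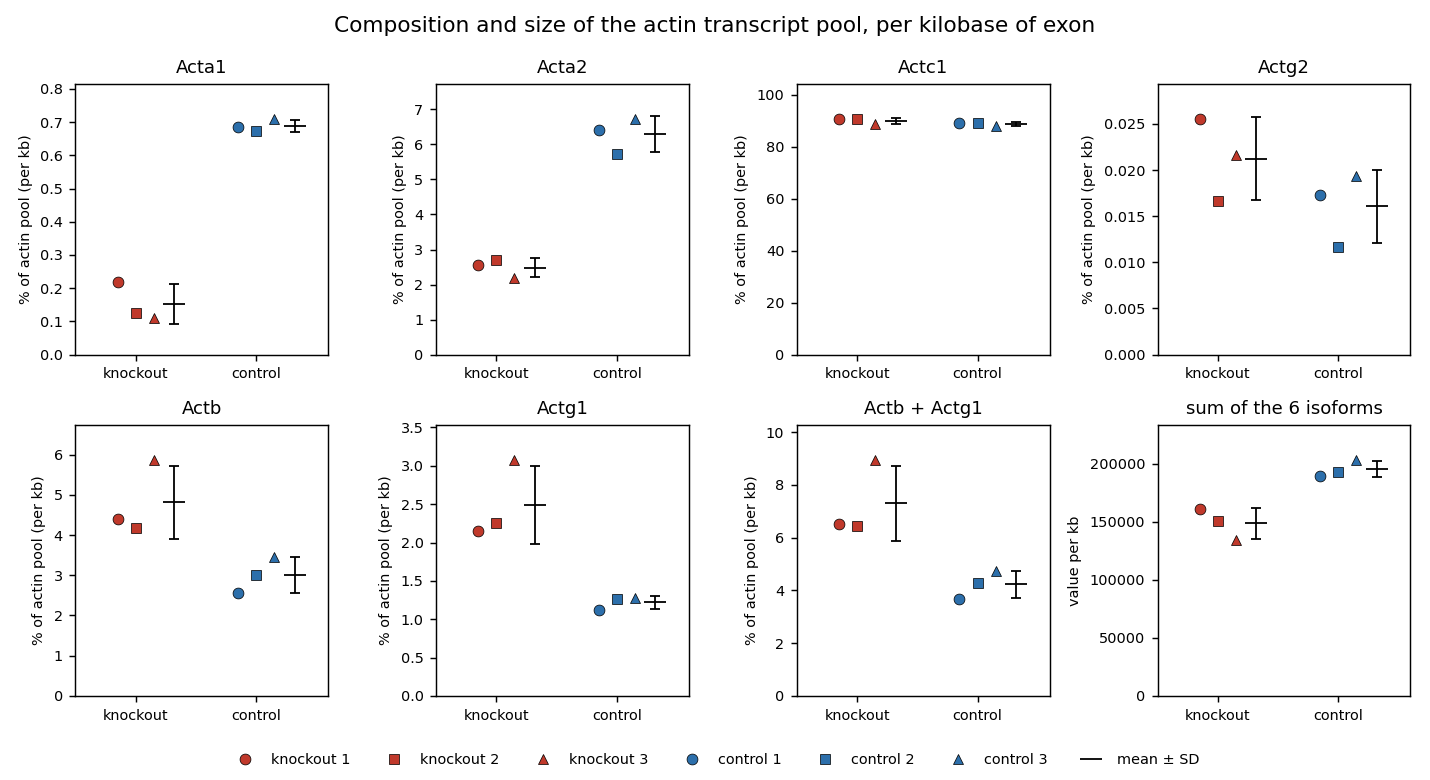
Share of each isoform, and of Actb with Actg1, in the summed values per kilobase of the 6 isoforms, and that sum, for 3 knockout and 3 control hearts (mean ± SD beside the points, axes from 0). Acta1 and Acta2 hold smaller shares in every knockout, Actb and Actg1 larger ones, and the shares of Actc1 and Actg2 overlap.

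All 15 pairs of isoforms were compared by their ratio per kilobase within a heart. In 12 pairs the groups did not overlap (exact permutation p = 0.1, adjusted over the 15 pairs 0.125), and the other 3 all involved Actg2, with its few reads. Within the muscle isoforms, Acta1 was lower relative to Acta2 in every knockout, with 0.0860, 0.0464 and 0.0505 Acta1 per Acta2 against 0.107, 0.118 and 0.105 in the controls. Acta2 per Actc1 was 0.0282, 0.0298 and 0.0247 in the knockouts and 0.0719, 0.0641 and 0.0766 in the controls. The fall was thus uneven among the muscle isoforms, Acta1 more than Acta2 and Acta2 more than Actc1, with no overlap between the groups in any of these ratios. Within the cytoplasmic isoforms, Actb per Actg1 was 2.05, 1.86 and 1.91 in the knockouts and 2.29, 2.39 and 2.70 in the controls. Actg1 carries the uncertainty of its pseudogenes in both groups.

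The promoters were searched for elements of the CArG family, because most actin genes are known targets of SRF. The table of promoters from RefSeq (GRCm38.p6, the assembly of mm10) matched 4 of the 6 members, Acta1, Acta2, Actc1 and Actg1. Actb and Actg2, the members that were not called, had no match. Called and uncalled members therefore cannot be compared here. Each sequence runs from 250 bases before to 50 after the annotated start, 5′ to 3′ on the gene's strand. Capitals mark each CArG box and each CArG-like element, in which 1 of the middle letters is not A or T. The CArG box reads the same on both strands, so 1 search covers both, and none of the matches overlap.
Acta1, chr8:123894726-123895025, minus strand: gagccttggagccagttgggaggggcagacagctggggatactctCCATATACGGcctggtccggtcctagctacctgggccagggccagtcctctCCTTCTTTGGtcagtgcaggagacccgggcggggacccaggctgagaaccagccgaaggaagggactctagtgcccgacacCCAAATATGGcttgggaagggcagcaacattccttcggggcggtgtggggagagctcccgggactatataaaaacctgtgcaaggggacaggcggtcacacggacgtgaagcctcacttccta
Acta2, chr19:34255324-34255623, minus strand: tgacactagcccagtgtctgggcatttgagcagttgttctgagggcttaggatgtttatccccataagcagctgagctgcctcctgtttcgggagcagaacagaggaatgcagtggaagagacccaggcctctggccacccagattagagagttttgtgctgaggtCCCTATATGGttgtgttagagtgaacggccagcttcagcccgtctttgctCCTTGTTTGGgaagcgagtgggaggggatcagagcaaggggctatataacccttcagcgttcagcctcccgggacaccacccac
Actc1, chr2:114052826-114053125, minus strand: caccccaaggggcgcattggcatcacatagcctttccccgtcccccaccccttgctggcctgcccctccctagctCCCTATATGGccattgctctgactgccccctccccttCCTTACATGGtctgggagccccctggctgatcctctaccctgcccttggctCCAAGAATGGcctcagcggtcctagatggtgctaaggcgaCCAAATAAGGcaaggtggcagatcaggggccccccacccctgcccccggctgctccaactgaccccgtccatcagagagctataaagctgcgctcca
Actg1, chr11:120348446-120348745, minus strand: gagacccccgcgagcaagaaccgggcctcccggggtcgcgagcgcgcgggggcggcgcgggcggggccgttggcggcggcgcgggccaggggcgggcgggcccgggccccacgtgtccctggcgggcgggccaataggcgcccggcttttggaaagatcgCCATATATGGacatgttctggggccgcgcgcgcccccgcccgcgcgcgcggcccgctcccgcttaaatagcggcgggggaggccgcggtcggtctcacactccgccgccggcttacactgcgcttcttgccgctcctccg
Acta1, Actc1 and Actg1 each held 1 CArG box, beginning 73, 47 and 90 bases before the annotated start. The accuracy of that start was not tested, and in the windows of Acta2 and Actc1 a TATA-like stretch lies after it. These distances are therefore not compared between genes. Acta1 and Acta2 each held 2 CArG-like elements and Actc1 held 3. Of all 32851 promoters in the table, 1.63% held a CArG box, 8.50% a CArG-like element and 9.98% either of them. The promoter of Actg1 was the richest in G and C, at 77.3%, against 54.7% to 62.7% in the others. A match of letters is a description of these windows and says nothing of binding.

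The genes whose profile over the 6 hearts was most like each isoform's were found by the root mean square difference of log2(value + 1), each gene centred on its own mean, over 10637 genes whose mean reached 100, without predicted genes, pseudogenes and RIKEN clones. For Acta1 they were Cnn1, the smooth muscle calponin gene (0.253 log2 units), Rbpms itself (0.406) and Ppp1r1b, a phosphatase inhibitor gene (0.639). Cnn1 was at 509, 316 and 217 in knockout hearts 1 to 3 and 1498, 1337 and 1576 in control hearts 1 to 3, with knockout 1 the highest knockout as for Acta1. For Acta2 they were Myh6, the alpha-myosin heavy chain gene (0.190), Rimkla (0.200) and Myl9, a regulatory light chain gene of smooth muscle (0.203). For Actc1 they were Lbr, the lamin B receptor gene (0.0271), Ptgds, a prostaglandin synthase gene (0.0347), and Tpm1, the tropomyosin gene of the same thin filament (0.0357). Tpm1 was at 75750, 72309 and 62118 in knockout hearts 1 to 3 and 90393, 85155 and 92704 in control hearts 1 to 3, with knockout 1 the highest and knockout 3 the lowest of the knockouts, as for Actc1. For Actb they were Nos3, the endothelial nitric oxide synthase gene (0.0515), Adgrd1 (0.0534) and Smagp (0.0660). For Actg1 they were Epha2, an ephrin receptor gene (0.0331), Iqce (0.0525) and Hexa, a lysosomal hexosaminidase gene (0.0553). These genes were chosen for likeness over the same 6 hearts, so a shared order of hearts follows from the choice and adds nothing. With only 6 hearts in 2 groups, such likeness is a description.

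Genes that act on actin changed in both directions and by less than Acta1 and Acta2. The counts below are to be read against the 8.61% of all genes tested that rose and the 8.56% that fell, and several lie near those shares. Of 20 genes that bind actin monomers or turn filaments over, 3 rose and 2 fell, with a median log2 fold change of -0.01. Dstn, an actin-depolymerizing factor, fell by 0.78 on the log2 scale (SE 0.09), at 10184, 9676 and 8548 in knockout hearts 1 to 3 and 17889, 14583 and 16429 in control hearts 1 to 3. Twf2, the monomer-binding twinfilin, rose by 0.47 (SE 0.09), Pfn2, a profilin, by 0.32 (SE 0.07) and Tmsb4x, the thymosin that sequesters monomers, by 0.26 (SE 0.07). Of 13 genes of the MRTF and SRF group, 0 rose and 3 fell, with a median log2 fold change of -0.02. Srf itself fell by 0.63 (SE 0.08), at 2551, 2194 and 2612 in the knockouts and 3504, 3848 and 4059 in the controls, and Fhl2, a LIM protein that binds SRF, by 0.42 (SE 0.08). Ablim3, an actin-binding LIM protein, fell by 0.29 (SE 0.08). The MRTF cofactor genes, listed as Mkl1 and Mkl2, were not called. They changed by -0.13 (SE 0.11) and 0.04 (SE 0.07). Myocd, also not called, changed by -0.25 (SE 0.12). Of 27 genes of actin nucleation and elongation, 0 rose and 3 fell: Cobl, a nucleator, by 0.52 (SE 0.12), Evl, of the Ena/VASP family, by 0.46 (SE 0.09), and Lmod3, the leiomodin that nucleates thin filaments in muscle, by 0.41 (SE 0.10).

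Of 20 genes of actin folding and modification, 0 rose and 3 fell, with a median of -0.12. They were subunits of the chaperonin that folds actin, Tcp1, which fell by 0.26 (SE 0.06), Cct3, by 0.20 (SE 0.06), and Cct7, by 0.19 (SE 0.06). Of 27 genes that cap or crosslink filaments, 4 rose and 6 fell, with a median of 0.06. Among them Cttn, cortactin, rose by 0.28 (SE 0.06), while Xirp1, of the intercalated disc, fell by 0.36 (SE 0.09), Actn2, the alpha-actinin of the Z-disc, by 0.31 (SE 0.08) and Tmod1, which caps the pointed end of thin filaments, by 0.23 (SE 0.06). Of 8 tested actin-related genes, 0 rose and 1 fell, Actl6a, a subunit of chromatin remodelling complexes, by 0.44 (SE 0.07). Of the 18 genes named from these lists as called, 6 passed the threshold without each heart in turn, and 12 did not. The 6 were Srf, Fhl2, Dstn, Twf2, Evl and Actl6a. The counts of calls for the lists rested on single hearts too. The 6 falls among capping and crosslinking genes were 0 without knockout 2, control 2 or control 3, 1 without knockout 1 and 3 without knockout 3, and the 4 rises were 1 without knockout 2 or control 3 and 2 without knockout 3. The 3 falls among folding genes were 0 without knockout 2 or control 2 and 1 without knockout 3 or control 3. The 3 rises among monomer-binding genes were 1 without knockout 2 or control 3, and the 2 falls were 1 without each of the knockouts, control 1 or control 3. The 3 falls among nucleation genes were 1 without control 3. Among nucleation genes 1 rose without knockout 1 or knockout 3, and in the MRTF and SRF group 1 rose without knockout 3 or control 1. Scaling and design moved the counts as well. With values scaled to equal totals, 4 nucleation genes and 1 gene of the MRTF and SRF group rose, where 0 had. Under quantile normalization, or with a filter of at least 50 in 3 hearts, 1 nucleation gene rose. The falls among folding genes and among monomer-binding genes were 1 each with equal totals, with quantile normalization, with no filter and with embryo sex as a covariate. Among capping and crosslinking genes 1 rose and 1 fell with no filter, and 3 fell with embryo sex as a covariate.

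**Figure D4:**
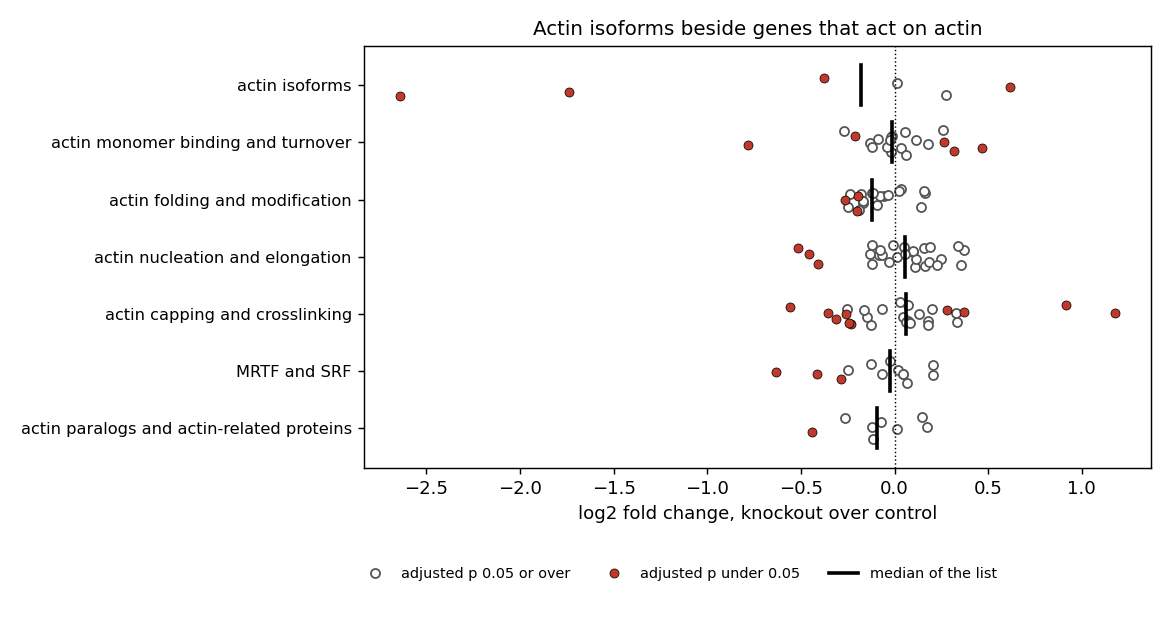
Log2 fold change, knockout over control, of each actin isoform (top row) and of each tested gene in 6 lists of genes that act on or resemble actin, with the median of each row as a bar and filled points for an adjusted p under 0.05. Acta1 (-2.64) and Acta2 (-1.74) lie to the left of every other gene drawn, and the medians of the 6 lists run from -0.12 to 0.06.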

How the data were processed

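Poly(A) RNA of 6 embryonic mouse hearts was sequenced from stranded libraries with paired reads, per the labels. The submitters' processing notes name the build mm10 and the tools STAR 2.4.2a, featureCounts 1.5.0, Trimmomatic, DESeq and DESeq2; the role of each, and whether counting used strand, are not given in the sources used here. The deposited values are treated as a score: reads per gene divided by a factor per heart and rounded by the authors, as read from the values, since the file headers state no unit.

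What 1 read is worth was estimated from the spacing of values up to 150, and was 0.6921, 1.2102 and 0.9388 in knockout hearts 1 to 3 and 1.0194, 0.8595 and 1.4227 in control hearts 1 to 3. Where it is below 1, exact reads cannot be recovered, so the main fit used no count model. Estimated reads, rounded, were used only in the limma-voom alternative. limma 3.58.1 (R 4.3.3) was fitted with a variance trend to log2(value + 1) of the 15556 genes with a mean of at least 10, with the group as the only term, and was tested on simulated data. P-values were adjusted by Benjamini-Hochberg with a threshold of 0.05. They rest on the spread between 3 hearts a group, moderated by a variance trend over all genes tested. The fold scale understates changes of low genes. Exon lengths and coordinates came from GENCODE M21, which matched 45143 of 45706 identifiers.

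The members and gene lists were chosen with earlier results of these data known. Named genes are all members, up to 4 called members of each list by p, and for each member with a mean of at least 100 the 3 genes of most similar profile, leaving out predicted genes. Mkl1, Mkl2 and Myocd are named as well, although they were not called. Of the list symbols, Naa80, Diaph1, Diaph2, Diaph3, Mrtfa, Mrtfb and Stars matched no row by that name. Mrtfa, Mrtfb and Stars are other names of Mkl1, Mkl2 and Abra, which were tested and not called. Epicardial markers (8, of which 1 rose and 0 fell, median 0.28) and erythroid markers (8, of which 0 rose and 0 fell, median -0.52) were also examined. Alternatives were pseudocounts of 0.1 and 10, limma-voom run on the estimated reads, a filter of at least 50 in 3 hearts or none, equal totals, quantile normalization, the replicate number as a block, embryo sex as a covariate and leaving out each heart. For the pool they were no length scaling, the longest transcript's length and the addition of pseudogene and paralog rows. Python 3.11.15, pandas 2.3.3, numpy 2.4.6, Biopython 1.88 and matplotlib 3.10.9 were used. Protein sequences were not used here.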

Additional observations from a re-analysis of the deposited data

How the results depend on the processing

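Acta1, Acta2 and Actg1 kept their direction and their call under all 15 alternatives, Acta1 between -3.00 and -2.37 and Acta2 between -1.82 and -1.58 on the log2 scale, with adjusted p of at most 0.00406 and 0.00238. For Actc1 the call was lost with a pseudocount of 10 (-0.38), with no filter (-0.38), with equal totals (-0.35), with embryo sex as a covariate (-0.37) and with quantile normalization (-0.11), which gives every heart the same set of values by rank; Actc1 had rank 2 by value in all knockouts and rank 1 or 2 in the controls. Leaving out 1 heart at a time gave -0.44 to -0.29, and the call remained only without knockout 1. Actg2, never called, turned to -0.089 with quantile normalization and ranged from -0.20 to 0.19 without each heart. The count of 2670 genes called was 1755 with no filter, 846 of them higher, and 1319 to 2371 without each heart, 619 to 1237 higher and 700 to 1225 lower; knockout 2 (1319) and control 3 (1669) moved it most. For the other losses of Actc1's call the cause was not tested. Without length scaling the difference in share, knockout minus control, was -4.93 percentage points for Acta2, 2.79 for Actb, 1.96 for Actg1 and 4.75 for both cytoplasmic isoforms, and the pool differed by -77629.

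The replicate numbers are shared by the groups, but same-numbered hearts did not deviate together (correlations of -0.04, -0.37 and 0.05 for numbers 1 to 3), and no knockout correlated best with the control of its own number. With the replicate number as a block, 3530 genes were called, Actc1 (-0.38) was not (adjusted p = 0.0698), and Actb (0.28) was (adjusted p = 0.0493). Under the same block 8 folding genes fell, and 7 capping and crosslinking, 4 nucleation and 2 MRTF and SRF genes rose. Depth limits Actg2 most, at 32 to 92 estimated reads per heart.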

Other observations

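The deviations of hearts from their group means, over the genes tested, correlated at 0.118 to 0.266 in the 4 pairs of a knockout and a control of the same sex, and at -0.372 to 0.049 in the 5 pairs of unlike sex. With embryo sex as a covariate, Acta1 changed by -2.67, Acta2 by -1.66 and Actg1 by 0.58 on the log2 scale.

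Among genes that cap or bind filaments, 3 others were picked out after their values were seen. Xirp2, of the same family as Xirp1, was at 336, 166 and 250 in knockout hearts 1 to 3 and 89, 178 and 75 in control hearts 1 to 3, and rose by 1.18 (SE 0.32), although control 2 lay above knockout 2. Tmod4, a tropomodulin of skeletal muscle, was at 38, 41 and 53 in the knockouts and 18, 28 and 23 in the controls, and rose by 0.91 (SE 0.24). Capza1, a subunit of the capping protein of the barbed end, was at 759, 750 and 1130 in the knockouts and 1362, 1271 and 1182 in the controls, and fell by 0.56 on the log2 scale (SE 0.14). None of the 3 calls was stable: of the 6 fits without 1 heart, Capza1 was called in 1, the fit without knockout 3, Tmod4 in 2, those without knockout 1 or control 2, and Xirp2 in 2, those without knockout 2 or control 2.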
